A study of Mus musculus with 8 samples.

Results

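Immediate early genes were examined in hematopoietic stem cells (HSCs) with and without Mitol. The 10 genes, Fos, Fosb, Jun, Junb, Egr1, Egr3, Nr4a1, Nr4a2, Nr4a3 and Btg2, were taken by symbol from a table of raw counts holding 22065 named genes. They were chosen by the spread of their counts between libraries, which was large for several of them, so that spread is given as a description with no test. All 10 passed the filter on low counts, which kept 16444 genes. The series holds 8 libraries of 100 sorted cells each, 4 labelled Mitol KO and 4 labelled Control, from bone marrow of C57BL/6 mice aged 8 to 10 weeks. By the study's methods, Mitol KO mice were Mitol Flox/Flox with MX1-cre, an interferon-inducible Cre that Poly:IC switches on and that is active beyond HSCs. Control mice were Mitol Flox/Flox littermates without the Cre. Both groups carried the floxed allele and both received Poly:IC, 1 week before the cells were taken. Whether the libraries of a group came from separate mice is not given in the sources used here, so p-values measure only the spread between these libraries.

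Immediate early genes are transcribed within minutes of a stimulus, without new protein synthesis, when MAP kinase and cAMP signals act on the factors SRF, ELK and CREB that already sit in the cell. Their messages are short-lived, and most encode transcription factors: FOS and JUN proteins pair to form AP-1, EGR proteins are zinc-finger factors, and NR4A proteins are orphan nuclear receptors. In HSCs, Egr1, Nr4a1 and Nr4a3 are known for restraining proliferation, and Btg2 encodes an antiproliferative cofactor.

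The DNA just upstream of the RefSeq start sites is shown for 6 of the genes, picked by spread. Nr4a1, Nr4a3 and Btg2 had the largest spread between libraries of the 10, and Fos, Fosb and Jun the smallest. The sequences were taken from RefSeq promoter windows of 250 bases before the start site (table build GRCm38.p6), each of which matched GRCm39 exactly once, and bases inside the gene's own annotated exons were left off. They read 5′ to 3′ on the gene's strand, and capitals mark a cAMP response element (CRE, TGACGTCA), its shorter core (TGACG, on either strand, also contained in the CRE) or a TATA box (TATAAA, gene strand only).
Fos (chr12:85520414-85520657, plus strand): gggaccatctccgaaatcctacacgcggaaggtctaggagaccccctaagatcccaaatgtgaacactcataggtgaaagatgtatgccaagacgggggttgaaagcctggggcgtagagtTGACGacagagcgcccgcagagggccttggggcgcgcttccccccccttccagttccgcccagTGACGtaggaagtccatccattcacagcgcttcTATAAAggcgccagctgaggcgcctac
Fosb (chr7:19043977-19044220, minus strand): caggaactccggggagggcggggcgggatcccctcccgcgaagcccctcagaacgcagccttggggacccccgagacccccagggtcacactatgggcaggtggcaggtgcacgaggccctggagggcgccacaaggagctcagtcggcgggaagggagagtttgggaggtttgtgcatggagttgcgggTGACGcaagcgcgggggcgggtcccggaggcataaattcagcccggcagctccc
Jun (chr4:94940460-94940709, minus strand): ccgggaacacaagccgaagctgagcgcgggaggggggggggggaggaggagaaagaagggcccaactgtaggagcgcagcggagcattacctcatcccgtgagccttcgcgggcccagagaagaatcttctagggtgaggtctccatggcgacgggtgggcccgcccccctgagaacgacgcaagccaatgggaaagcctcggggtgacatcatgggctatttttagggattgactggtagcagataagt
Nr4a1 (chr15:101164477-101164656, plus strand): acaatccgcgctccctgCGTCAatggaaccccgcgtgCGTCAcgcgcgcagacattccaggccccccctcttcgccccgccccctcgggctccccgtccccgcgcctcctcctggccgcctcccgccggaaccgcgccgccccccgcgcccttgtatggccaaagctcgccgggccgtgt
Nr4a3 (chr4:48045055-48045152, plus strand): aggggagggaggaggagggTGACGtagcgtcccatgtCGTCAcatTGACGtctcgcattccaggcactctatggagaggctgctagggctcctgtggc
Btg2 (chr1:134006894-134007143, minus strand): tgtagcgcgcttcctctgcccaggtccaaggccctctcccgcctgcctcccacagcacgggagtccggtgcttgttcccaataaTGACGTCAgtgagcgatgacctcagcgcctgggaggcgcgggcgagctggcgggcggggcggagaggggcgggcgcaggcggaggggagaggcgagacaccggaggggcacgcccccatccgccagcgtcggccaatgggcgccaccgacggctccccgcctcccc
The CRE core lay in the full windows of 7 of the 8 genes with an entry, all but Jun, against 17.9% of 27025 mouse promoter windows of the same length. Nr4a1, Nr4a2 and Nr4a3 each held 4 copies, a number reached by 0.152% of all windows (41 windows). The full CRE was in Btg2 alone among the 8, and in 1.62% of all windows. The TATA box was in Fos alone, and in 8.12% of all windows. CArG boxes (1.4% of all windows), AP-1 sites (TGACTCA, 4.43%), EGR sites (GCGTGGGCG, 0.54%) and NR4A sites (AAAGGTCA, 1.31%), searched on both strands, were in none of the 8 windows. Windows were set by RefSeq start sites, and GENCODE places part of them in exons of the same gene: all 250 bases for Nr4a2, 152 for Nr4a3, 70 for Nr4a1 and 6 each for Fos and Fosb. The windows of Nr4a1 and Btg2 lie inside the annotated genes (chr15:101151980-101172681 and chr1:134002908-134015033), downstream of their outermost annotated starts. DNA upstream of those outer starts was not searched. These are letter matches in 1 window per gene and say nothing of which factor bound there. The window of Jun overlapped exons of the antisense Junos by 199 bases, that of Nr4a1 overlapped Gm63176 by 73 bases and that of Btg2 overlapped Gm31974 by 34 bases.

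The libraries were deep and alike in quality. Totals ran from 7214935 to 12398138 counts over named genes, 20589 to 21038 genes had a count, and mitochondrial genes took 2.7% to 3.8%. Normalized counts, the deposited counts divided by a size factor per library, are given throughout. Marchf5, which encodes MITOL, was at 276, 232, 308 and 281 normalized counts in Mitol KO and at 299, 312, 333 and 262 in Control (log2 fold change -0.15, SE 0.13, edgeR quasi-likelihood adjusted p = 0.498), so its counts over the whole gene did not separate the genotypes. Sort markers were present in every library: Slamf1, which encodes CD150, at 299 to 669 and Procr, which encodes EPCR, at 387 to 719. Summed over 12 HSC markers, Mitol KO libraries held 32415 to 36946 normalized counts and Control libraries 45521 to 52904, and 4 of the 12 fell in Mitol KO, Kit, Hlf and Tie1 among them. The 8 erythroid markers summed to 978 to 3466 in Mitol KO and 392 to 782 in Control, with 1 of 4 tested genes higher (Hbb-bt). Of 6 megakaryocyte markers, 4 were in the table, 3 were tested and 1 (Pf4) fell, with sums of 375 to 1643 against 716 to 806. The sums also overlapped between groups for neutrophil and monocyte (1663 to 1826 against 1692 to 1915), macrophage (80.4 to 380 against 47.1 to 123), B and T lineage (335 to 401 against 317 to 405), mast cell and basophil (7.32 to 13.8 against 11.3 to 21.1) and stromal and endothelial markers (959 to 1680 against 1043 to 1229). In these 5 lists edgeR called 0 of 17 tested genes, with 3 at an unadjusted p under 0.05 and 2 called by DESeq2. The part these markers had in the results was not tested. In bulk samples, fewer cells expressing a gene and less RNA per cell cannot be told apart.

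Per kilobase of annotated exon, Fos was the most abundant of the 10 in Control (4035 ± 1177 normalized counts per kb, SD, n = 4), followed by Egr1 (2276 ± 689), Fosb (576 ± 141), Junb (408 ± 159), Jun (406 ± 72.1), Nr4a1 (314 ± 212), Btg2 (157 ± 84.4), Egr3 (73.2 ± 46.7), Nr4a2 (62.0 ± 33.6) and Nr4a3 (12.8 ± 8.73). Along that order the libraries of each gene overlapped those of the next, except between Egr1 and Fosb. In Mitol KO the order ran Fos (3551 ± 891), Egr1 (1534 ± 334), Junb (610 ± 264), Jun (507 ± 126), Fosb (350 ± 112), Nr4a1 (299 ± 51.7), Btg2 (212 ± 101), Nr4a2 (79.6 ± 19.6), Egr3 (46.4 ± 22.4) and Nr4a3 (12.4 ± 7.21), and there the libraries of neighbours did not overlap between Fos and Egr1, Egr1 and Junb, Btg2 and Nr4a2, or Egr3 and Nr4a3. By its mean Fosb stood above Junb and Jun in Control and below them in Mitol KO, and the ranges of the 3 genes over the libraries overlapped in both groups. Compared within each library, Fosb per kilobase was above Jun in every Control library and below it in every Mitol KO library. This order depends on the annotated lengths (6243 bases for Fosb, 3189 for Jun). Before division by length, Fosb also exceeded Jun in Mitol KO replicates 1 (2168 against 1370), 2 (1837 against 1273) and 4 (3174 against 2168). The pair was picked after its values were seen, and how many gene pairs separate likewise was not tested. The order of Fosb against Junb per kilobase varied between libraries in both groups. Lengths are unions of all annotated exons, which lowers the per-length level of a gene with many alternative first exons such as Nr4a1 (10903 bases against 2358 for Fos).

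**Figure D1:**
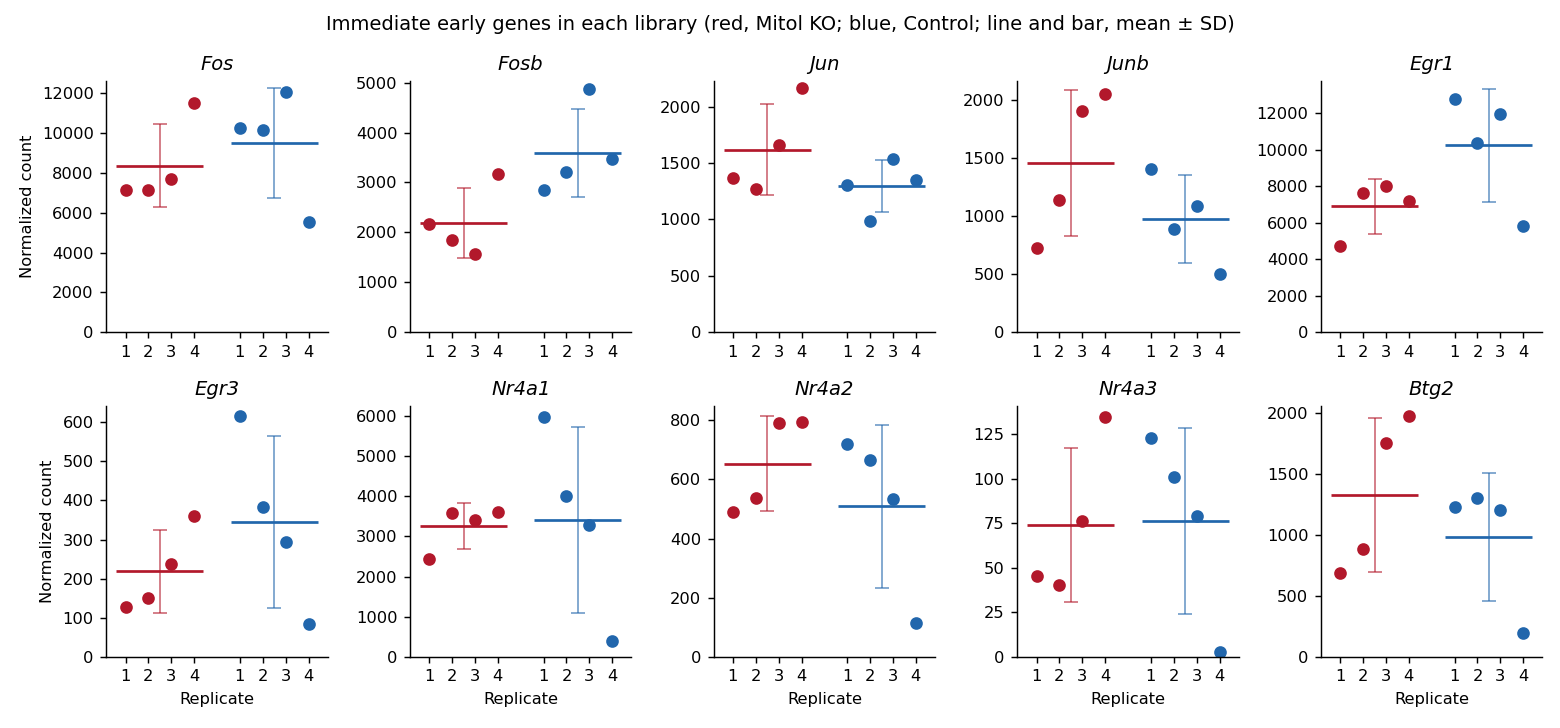
Normalized counts (vertical axes, linear from 0) of the 10 immediate early genes in each of 4 Mitol KO (red) and 4 Control (blue) libraries, with the mean (line) and SD (bar) of each group. Control replicate 4 sits lowest of the 8 libraries for Fos, Junb, Egr3, Nr4a1, Nr4a2, Nr4a3 and Btg2, but not for Fosb, Jun or Egr1.

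Among the AP-1 subunits, Fosb was the 1 gene of the 10 that passed the test, and it was lower in Mitol KO. Fosb (chr7:19036621-19043976), which encodes a partner of JUN proteins, was at 2168, 1837, 1572 and 3174 normalized counts in Mitol KO replicates 1 to 4 and at 2849, 3210, 4864 and 3462 in Control replicates 1 to 4. Mitol KO replicates 1 to 3 were below every Control library, whereas Mitol KO replicate 4 lay inside the Control range. Its log2 fold change was -0.74 (SE 0.21, edgeR adjusted p = 0.0476). The call sat at the threshold. It was kept without Mitol KO replicate 4 (-0.95, adjusted p = 0.00435) and without Control replicate 1 (-0.82, adjusted p = 0.0432). It was lost without any of the other 6 libraries, where edgeR log2 fold changes ran from -0.79 to -0.55 and adjusted p from 0.0844 to 0.124, the smaller change being without Control replicate 3. With edgeR on RLE size factors (adjusted p = 0.0505) or without the filter on low counts (adjusted p = 0.0524) it was also lost, and DESeq2 gave an adjusted p of 0.00812.

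Fos (chr12:85520658-85524047), the founding member of the family, was at 7144, 7137, 7716 and 11501 normalized counts in Mitol KO and at 10285, 10161, 12051 and 5558 in Control. Control replicates 1 to 3 were above Mitol KO replicates 1 to 3, and the fourth library of each group lay on the other side. The fold change was -0.20 on the log2 scale (SE 0.21, edgeR adjusted p = 0.588), and -0.39 (adjusted p = 0.192) without Control replicate 4. Fos and Fosb, which are often induced together, parted in that library: Fos was 1.95 times lower than the mean of the other 3 Control libraries, whereas Fosb lay within their range.

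Jun (chr4:94937271-94940459), which encodes the main dimer partner of FOS, was at 1370, 1273, 1660 and 2168 normalized counts in Mitol KO and at 1307, 983, 1536 and 1349 in Control. The groups overlapped, with Mitol KO replicate 4 highest and Control replicate 2 lowest. Its fold change of 0.30 (SE 0.17) did not pass (edgeR adjusted p = 0.284). It had the smallest within-group spread of the 10 genes, an SD of 0.31 on the log2 CPM scale. Junb (chr8:85701113-85705359), whose product pairs with FOS proteins and restrains JUN, was at 722, 1140, 1899 and 2050 in Mitol KO and at 1405, 890, 1090 and 501 in Control. Mitol KO replicates 3 and 4 were above every Control library, and Mitol KO replicate 1 was below all Control libraries except replicate 4. The fold change was 0.57 (SE 0.33, edgeR adjusted p = 0.295), and 0.35 (adjusted p = 0.554) without Control replicate 4. Both genes share exon bases with genes on the opposite strand, and no strand setting for the counting is given in the sources used here, so their reads cannot be told apart there: Jun shares 528 bases with Junos, and Junb shares 173 bases with Prdx2 and 145 with Gm65321. Prdx2, a peroxiredoxin gene, rose in Mitol KO (1710 against 1191 mean normalized counts, log2 fold change 0.50, edgeR adjusted p = 0.0122).

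Egr1 did not pass the test with all 8 libraries. It was lower in every Mitol KO library than in Control replicates 1 to 3, and passed only with Control replicate 4 left out. Egr1, whose product binds GC-rich promoter sites, was at 4706, 7653, 8034 and 7197 normalized counts in Mitol KO and at 12769, 10372, 11960 and 5834 in Control. The lowest of Control replicates 1 to 3 exceeded the highest Mitol KO library, while Control replicate 4 was below 3 of the 4 Mitol KO libraries. Over all 8 libraries the log2 fold change was -0.59 (SE 0.22, edgeR adjusted p = 0.114). Without Control replicate 4 it was -0.78 (SE 0.16, edgeR adjusted p = 0.0316). Leaving out any other single library gave changes from -0.66 to -0.44 that did not pass. Egr3 (chr14:70314350-70320063), a related factor, was at 127, 151, 237 and 360 in Mitol KO and at 616, 384, 295 and 84.4 in Control. Its libraries were spread widely in both groups, with Control replicate 1 highest and Control replicate 4 lowest of the 8. The fold change was -0.67 (SE 0.46, edgeR adjusted p = 0.392) with all libraries and -0.99 (adjusted p = 0.127) without Control replicate 4.

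None of the 3 NR4A receptor genes passed the test with all libraries, and for each of them Control replicate 4 was the lowest of the 8 libraries. Nr4a1 (chr15:101151980-101172681) was at 2429, 3593, 3413 and 3618 normalized counts in Mitol KO and at 5983, 4021, 3276 and 396 in Control. The Mitol KO libraries were within 1.49-fold of each other, whereas the Control libraries spanned 15.1-fold and Control replicate 4 lay below all others. Without Control replicate 4 the Control libraries spanned 1.83-fold. The log2 fold change was -0.081 (SE 0.51, edgeR adjusted p = 0.941), and -0.45 (adjusted p = 0.207) without Control replicate 4. It was also above 0 in some fits with another library left out, reaching 0.34 without Control replicate 1.

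Nr4a2 (chr2:56996842-57014331) was at 491, 538, 791 and 792 normalized counts in Mitol KO and at 721, 667, 534 and 113 in Control. Apart from Control replicate 4 the groups covered nearly the same range. The log2 fold change went from 0.35 (SE 0.40, edgeR adjusted p = 0.617) to 0.014 (adjusted p = 0.977) once that library was left out. Nr4a3 (chr4:48045153-48086447), the least abundant, was at 45.4, 40.5, 76.0 and 134 in Mitol KO and at 123, 101, 79.1 and 2.69 in Control. The last value stands for 3 reads, against 272 reads in the other 3 Control libraries together. The normalized ratio was 36.6 (exact 95% interval 12.4 to 179, which covers counting error only). Gene and library were singled out for this low value, so the interval is a description and no test of a difference. The fold change of Nr4a3 was -0.047 (SE 0.66, edgeR adjusted p = 0.975), and -0.46 (adjusted p = 0.531) without Control replicate 4. Annotated lncRNA genes overlap Nr4a1 (656 exon bases shared with Gm63180) and lie across Nr4a3 without sharing exon bases.

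Btg2 (chr1:134002908-134015033), a p53-responsive brake on the cell cycle, did not pass the test. It was at 691, 887, 1760 and 1975 normalized counts in Mitol KO and at 1233, 1308, 1205 and 196 in Control. Control replicates 1 to 3 agreed within 1.09-fold, Mitol KO replicates 1 and 2 were below them, Mitol KO replicates 3 and 4 above them, and Control replicate 4 lowest of all. The SD on the log2 CPM scale was 0.75 in Mitol KO, 1.33 in Control and 0.06 in Control replicates 1 to 3, values given without a test. The log2 fold change was 0.42 (SE 0.47, edgeR adjusted p = 0.609) and 0.076 (adjusted p = 0.919) without Control replicate 4. Btg2 shares 898 exon bases with Gm31974 on the opposite strand.

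**Figure D2:**
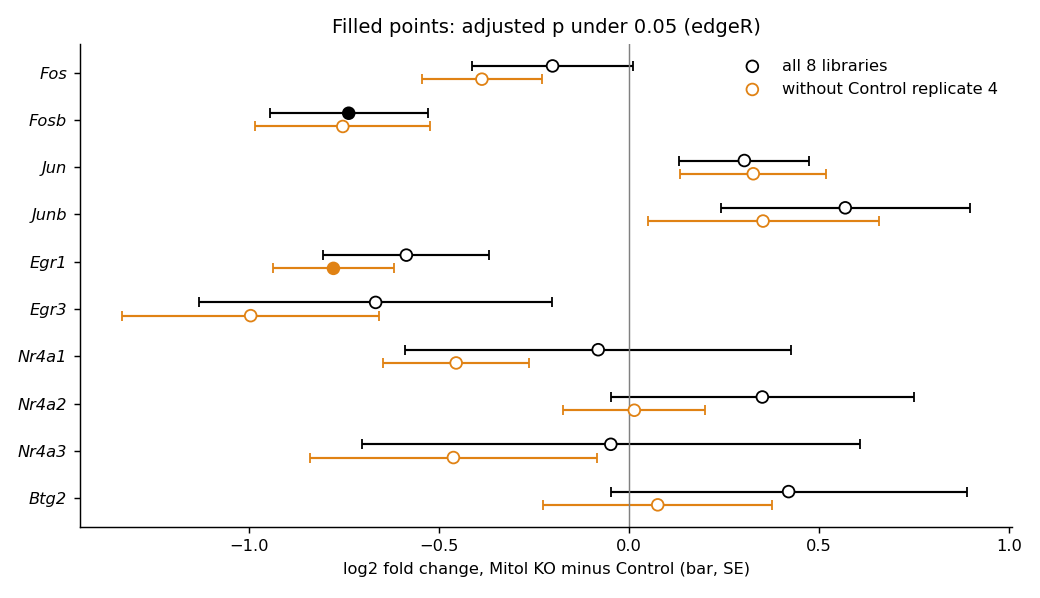
Log2 fold changes of Mitol KO against Control (horizontal axis, bars give the SE) for the 10 genes with all 8 libraries (black) and without Control replicate 4 (orange), with filled points where the edgeR adjusted p was under 0.05. Fosb (-0.74) is the filled point with all libraries and Egr1 (-0.78) the filled point without that library.

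Across the 10 genes, 1 passed the edgeR test, while 8.43% of all genes tested did (1386 of 16444), so the share was close to the background. The same gene was the 1 called by DESeq2, whose background was 14.1%. No gene of the 10 had groups that did not overlap, against 15.4% of all genes. Without Control replicate 4, 1 of 10 passed (Egr1) against a background of 3.08%, and 1 of 10 had groups that did not overlap (again Egr1) against 18.0%. At an unadjusted edgeR p under 0.05 the count was 2 of 10 with all libraries (Fosb and Egr1), against 26.4% of all genes. With Control replicate 4 left out it was 5 of 10 (Fos, Fosb, Egr1, Egr3 and Nr4a1), all 5 lower in Mitol KO, against 20.8% of all genes in either direction and 9.74% in the lower direction. Leaving out any other single library gave 2 or 3 of 10, with Jun or Junb among them in some fits. Control replicate 4 was low for most of the 10 and added to the spread that chose them. The count without it is therefore a description. The median log2 fold change of the 10 was -0.064 with all libraries, against -0.020 for all genes.

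The spread that brought these genes together was uneven. The pooled within-group SD of log2 CPM was 0.26 for the median gene and 0.79 for the median of the 10. It was 1.67 for Nr4a3, 1.25 for Nr4a1, 1.08 for Btg2, 0.98 for Egr3 and 0.92 for Nr4a2, each above at least 96.5% of all genes tested. Junb followed with 0.67 (90.3rd percentile), then Egr1 with 0.44, Fos with 0.42, Fosb with 0.39 and Jun with 0.31 (59.5th percentile). Leaving out Control replicate 4 reduced the Control SD from 1.75 to 0.44 for Nr4a1, from 2.23 to 0.31 for Nr4a3, from 1.24 to 0.22 for Nr4a2 and from 1.21 to 0.54 for Egr3. For Fosb it rose from 0.33 to 0.41.

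**Figure D3:**
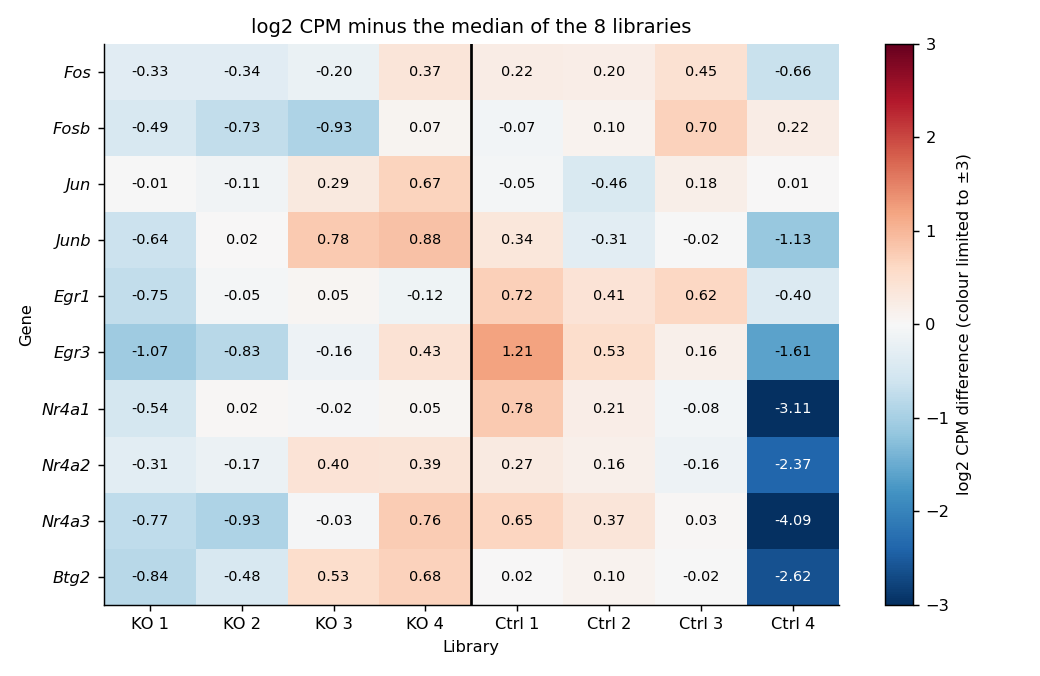
Log2 CPM of each gene (rows) in each library (columns; KO, Mitol KO; Ctrl, Control) minus the median of the 8 libraries, with the value in each cell and colours limited to 3 in either direction. Control replicate 4 holds the lowest values, down to -4.09 for Nr4a3 and -3.11 for Nr4a1, and Mitol KO replicate 1 is below 0 for all 10 genes.

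Library by library, Control replicate 4 was lowest of the 8 for 7 genes and among the lowest 3 for 8. Mitol KO replicate 1 was among the lowest 3 for 9 genes and Mitol KO replicate 2 for 7. Mitol KO replicate 4 was highest for 4 genes and among the highest 3 for 8, and Control replicate 1 was highest for 3 genes and among the highest 3 for 7. Both groups thus held a library near the top and a library near the bottom. The median of the 10 genes, each measured against the mean of the other 3 libraries of its group, was -0.63, -0.33, 0.31 and 0.72 in Mitol KO replicates 1 to 4 and 0.85, 0.41, 0.51 and -1.69 in Control replicates 1 to 4 on the log2 scale. The positive Control values in part reflect replicate 4, which enters the mean the other libraries were measured against.

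In Control replicate 4 the NR4A genes were among the most reduced of the whole transcriptome. Ranked from the lowest among 16444 genes by the difference from the other 3 Control libraries, Nr4a3 was at place 2, Nr4a1 at 8, Btg2 at 23, Nr4a2 at 32 and Egr3 at 47. Compared with the mean normalized count of those libraries, Nr4a1 was 11.2 times lower, Btg2 6.38 times, Nr4a2 5.66 times, Egr3 5.11 times, Junb 2.25 times and Egr1 2.01 times lower. Jun, at 1349 against 1275 ± 278 (SD, n = 3), and Fosb, at 3462 against 3641 ± 1075, were within the spread of the other Control libraries. Differences beyond -1 on the log2 scale were seen for 6 of the 10 genes and for 2.61% of all genes tested in that library (429 genes), which is inside the 1.75% to 4.32% of the other 7 libraries. The low values of this library added to the spread that chose the 10 genes. Their ranks and their share are therefore a description and no evidence that they stand apart from other genes. In the upward direction that library differed more widely. Differences above 1 were seen for 4.31% of all genes tested (708 genes), against 1.5% to 4.12% in the other 7 libraries. In both directions, the shares of Control replicates 1 to 3 were taken against a mean that holds replicate 4. A chi-square per gene, larger for less alike libraries, was 12.2 to 19.7 between replicate 4 and the other Control libraries. It was 6.11 to 9.13 among Control replicates 1 to 3 and 6.95 to 27.4 among Mitol KO libraries. Control replicate 4 had 9794120 counts, 3.3% mitochondrial counts, the largest sum of HSC markers (52904) and the smallest of erythroid markers (392). The part of these values in the difference was not tested.

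**Figure D4:**
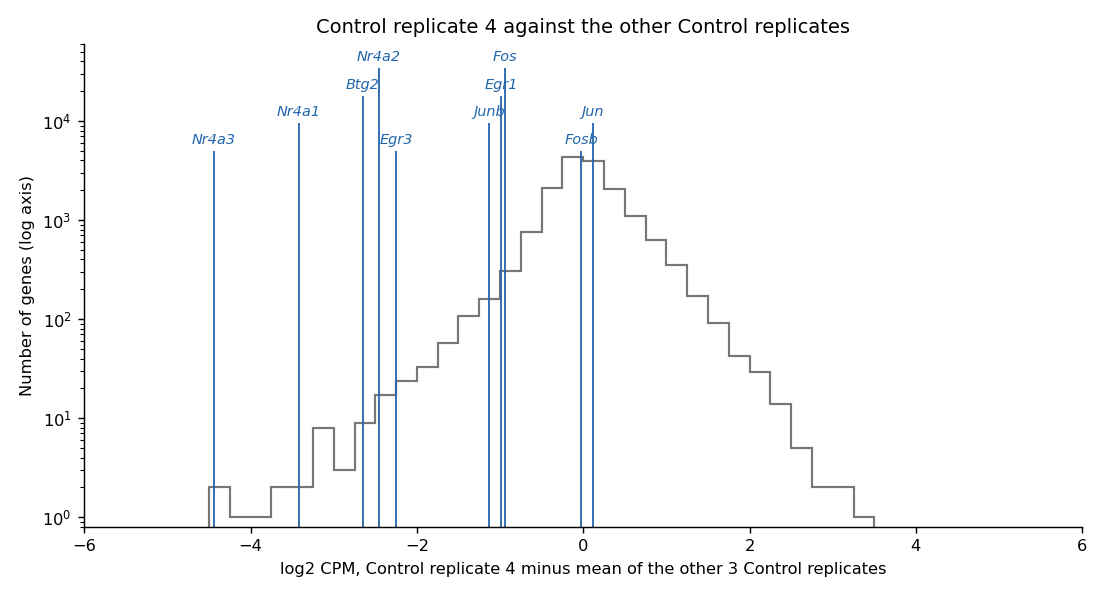
Distribution over 16444 genes of log2 CPM in Control replicate 4 minus the mean of the other 3 Control replicates (horizontal axis; grey line, number of genes in bins on a log axis; 1 gene lies beyond the left edge), with the 10 genes marked in blue. Jun (0.12) and Fosb (-0.022) lie at the centre, Fos, Egr1 and Junb between -1.13 and -0.95, and the other 5 genes from -4.44 to -2.25.

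Of 11 other AP-1 partner genes, 9 were tested, 1 rose and 1 fell in Mitol KO, against 8.43% of all genes in either direction. Batf, a partner of JUN proteins known from lymphocytes, rose (202 ± 22.1 against 127 ± 5.34 normalized counts, SD, n = 4, log2 fold change 0.66, edgeR adjusted p = 0.0233), and Mafg, a small MAF protein gene, fell (1084 ± 62.0 against 1432 ± 155, -0.42, adjusted p = 0.0238). Of the 8 fits with 1 library left out, Batf passed in 4 (without Mitol KO replicate 1 or 4 or Control replicate 1 or 3) and Mafg in 2 (without Mitol KO replicate 4 or Control replicate 3), and neither passed without Control replicate 4 (adjusted p = 0.0522 and 0.0652). Fosl2, the FRA2 gene, was at 3530, 2370, 8243 and 6292 normalized counts in Mitol KO and at 3313, 5373, 4003 and 684 in Control. As for Btg2, its highest values were in Mitol KO replicates 3 and 4 and its lowest in Control replicate 4. Atf3, a stress-induced factor, was at 0 to 66.7 in Mitol KO and 2.69 to 82.9 in Control, and Maff at 122 to 263 and 126 to 275.

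Among 30 other immediate early regulators, 26 were tested, 3 rose and 2 fell (19.2%, against 8.43% of all genes), with a list median of 0.24 against -0.020 for all genes. Gadd45g, a stress-response gene, was at 28.2, 52.0, 179 and 201 normalized counts in Mitol KO and at 25.1, 25.5, 15.1 and 26.9 in Control (log2 fold change 2.29, SE 0.55, edgeR adjusted p = 0.0287). The rise was carried mostly by Mitol KO replicates 3 and 4, the libraries in which Junb and Btg2 were also high. Bhlhe40, a circadian and stress-responsive repressor gene, rose from 170 ± 52.9 to 435 ± 192 (1.34, adjusted p = 0.0270), and Csrnp1 from 558 ± 135 to 865 ± 119 (0.62, adjusted p = 0.0433). Klf6 fell from 1696 ± 367 to 1169 ± 130 (-0.55, adjusted p = 0.0388) and Irf1, an interferon-response factor gene, from 1214 ± 211 to 748 ± 108 (-0.72, adjusted p = 0.0136). Irf1 passed in all 8 fits with 1 library left out. Bhlhe40 was lost without Mitol KO replicate 3 or Control replicate 2 or 4, and Gadd45g without those or Control replicate 3. Of those fits, Csrnp1 passed only without Mitol KO replicate 4 or Control replicate 1, and Klf6 only without the fourth library of either group. Without Control replicate 4 the calls were Irf1 (adjusted p = 0.0332), Klf6 (0.0168) and Ier2 (-0.81, 0.0418), all lower in Mitol KO, while Gadd45g (0.0696), Bhlhe40 (0.0679) and Csrnp1 (0.0792) no longer passed. Sgk1, a kinase gene, was at 139 to 412 in Mitol KO and at 42.2 to 193 in Control, and Egr2, another EGR gene, at 4.58 to 13.8 and 1.80 to 26.4.

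The feedback regulators that immediate early signals switch on held the largest rise of the 5 lists among genes that passed. Socs3, an inhibitor of cytokine receptor signalling, was at 629, 700, 1789 and 2177 normalized counts in Mitol KO and at 194, 262, 260 and 43.1 in Control. Every Mitol KO library exceeded every Control library (log2 fold change 2.80, SE 0.51, edgeR adjusted p = 0.0107), and the change was 2.45 (adjusted p = 0.0174) without Control replicate 4. Dusp6, a phosphatase that switches off ERK, fell from 1046 ± 123 to 625 ± 123 (-0.76, adjusted p = 0.0119). Both calls held in all 8 fits with 1 library left out. These were 2 of 26 genes tested, against the background of 8.43%. Sik1, a CREB-responsive kinase gene, was at 5108, 3785, 4489 and 4039 in Mitol KO and at 6316, 5315, 4971 and 1186 in Control. Dusp5, a nuclear ERK phosphatase gene, was at 579, 715, 480 and 409 and at 706, 589, 579 and 145. For both genes Control replicate 4 was the lowest library by far, the pattern seen for Nr4a1.

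The upstream transducers, kinases and factors that carry the signal to these promoters, were stable between libraries. Of 28 tested, 2 passed (7.14%, against 8.43% of all genes), both higher in Mitol KO. Rps6ka3, which encodes the kinase RSK2, was at 2070, 1950, 2835 and 2748 normalized counts in Mitol KO and at 828, 943, 1035 and 731 in Control (log2 fold change 1.42, SE 0.15, edgeR adjusted p = 0.00134), a difference kept in all 8 fits with 1 library left out. The median within-group SD of the list was 0.15, and in Control replicate 4 no transducer differed from the other Control libraries by more than 1 on the log2 scale in the lower direction. The 3 with the largest spread, Crem (48.8 to 95.5 in Mitol KO and 47.1 to 79.8 in Control), Elk1 (230 to 387 and 215 to 302) and Rps6ka2 (9.52 to 17.2 and 9.88 to 20.7), did not pass.

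Heat shock genes, which respond to stress through another factor, were followed beside these lists. Of 15 genes, 13 were tested and 5 passed, all 5 higher in Mitol KO, against the background of 8.43% in either direction. A fold change above 0 was found for 12 of the 13 and for 47.7% of all genes, and the list median was 0.43 against -0.020. Hsp90aa1 rose from 1260 ± 273 to 2319 ± 321 normalized counts (0.86, edgeR adjusted p = 0.00963), Hspe1 from 156 ± 49.96 to 277 ± 39.3 (0.82, adjusted p = 0.0368), Hspa8 from 4332 ± 1205 to 7433 ± 1671 (0.76, adjusted p = 0.0387), Hspd1 from 500 ± 115 to 821 ± 149 (0.70, adjusted p = 0.0288) and Hsp90ab1 from 13120 ± 1468 to 17845 ± 1893 (0.43, adjusted p = 0.0268). These encode cytosolic and mitochondrial chaperones. Without Control replicate 4, 1 of the 5 still passed (Hsp90aa1, 0.74, adjusted p = 0.0200), and Hsp90aa1 also passed in the other 7 fits with 1 library left out. Hspa8 passed in 3 of the 8 fits (without Mitol KO replicate 1 or 4 or Control replicate 3), Hsp90ab1 in 3 (without Mitol KO replicate 4 or Control replicate 1 or 3) and Hspe1 and Hspd1 in 2 (without Mitol KO replicate 4 or Control replicate 1). The stress-inducible Hspa1b was at 11.7, 6.23, 402 and 55.0 in Mitol KO and at 13.2, 6.38, 17.0 and 0.898 (1 read) in Control, so that Mitol KO replicate 3 stood alone. Hsph1 (1059 to 2358 and 258 to 1069) and Dnajb1 (873 to 1714 and 666 to 1149) did not pass.

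**Figure D5:**
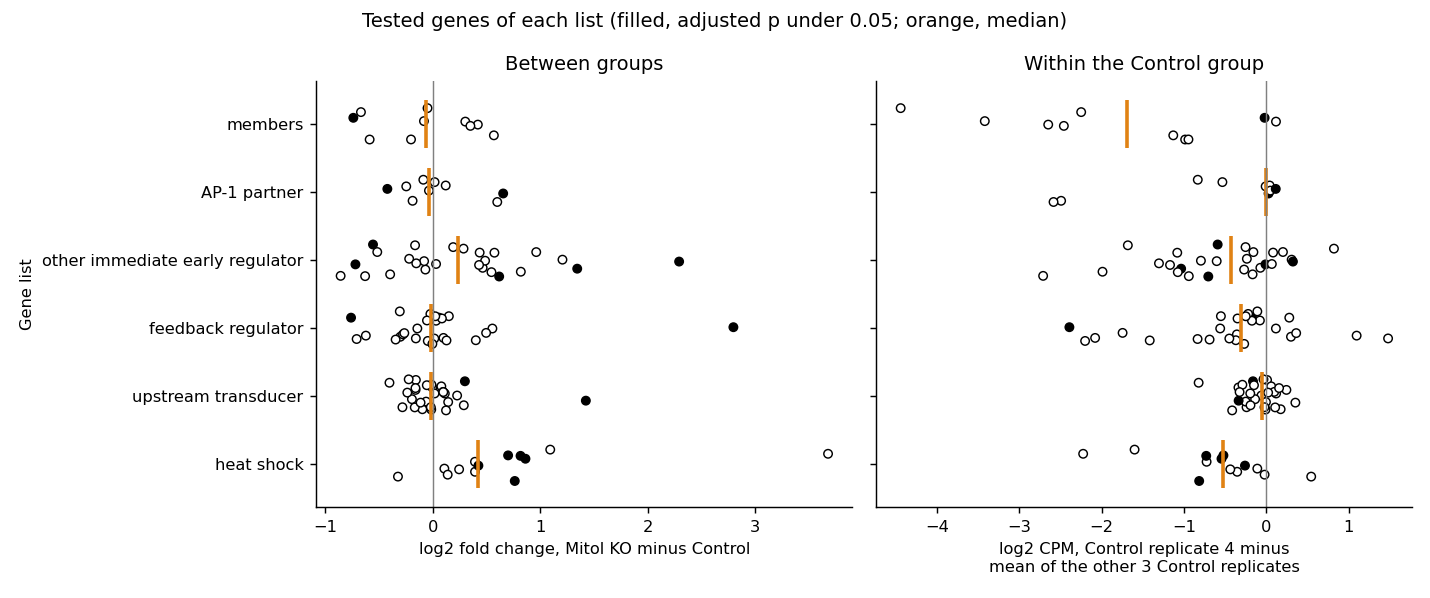
Each point is a tested gene of the list on the vertical axis. The left panel gives its log2 fold change of Mitol KO against Control and the right panel its log2 CPM in Control replicate 4 minus the mean of the other 3 Control replicates (filled, adjusted p under 0.05 between groups; orange, list median). The members' median on the right is -1.69, and medians of the other lists lie between -0.52 and -0.010.

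Low values in Control replicate 4 extended to part of the related lists. Genes below the other Control libraries by more than 1 on the log2 scale numbered 2 of 9 AP-1 partners (Fosl2 and Atf3), 8 of 26 other immediate early regulators, 5 of 26 feedback regulators (Socs3, Sik1, Dusp5, Trib1 and Nfkbiz), 2 of 13 heat shock genes (Hspa1b and Hsph1) and 0 of 28 transducers, beside 2.61% of all genes tested. Among genes with at least 50 mean normalized counts, the 20 lowest in that library included 5 of the 10 genes as well as Fosl2 (-2.58), Socs3 (-2.39), Hspa1b (-2.22), Sik1 (-2.20), Dusp5 (-2.08) and Sgk1 (-1.99). These lists were drawn up with results of these data known, so the counts are a description.

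The genes whose levels followed the mean of the 10 most closely were sought among 12003 genes with at least 50 mean normalized counts, over the 8 libraries after removing the group means. The highest Pearson r were those of Abi3 (0.99), Man1b1 (0.99), Mideas (0.99), Nsf (0.98), Ccnl1 (0.98), Plac8 (0.98), Arf4 (0.98) and Rpl27a (0.97), with Spearman rho from 0.83 to 0.98. Without Control replicate 4 and Mitol KO replicate 1, the libraries farthest from the median, r was 0.87 to 0.99. Their amplitude was smaller than that of the NR4A genes: Mideas, whose r was the highest of the 8 without those libraries, was at 1352, 1315, 1439 and 1544 normalized counts in Mitol KO and at 1502, 1415, 1423 and 1075 in Control. Ccnl1, a cyclin gene linked to splicing, was at 2446, 2655, 2744 and 3236 and at 3006, 3050, 3102 and 1703. The genes were selected for these values among many, so no p is given.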

How the data were processed

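RNA-seq counts of 8 libraries (4 Mitol KO, 4 Control, grouped by the sample titles) were analysed. Per the study's methods, cDNA from 100 sorted HSCs (CD150+ CD48- EPCR+ Lineage-) was made with not-so-random primers, prepared with a Nextera XT kit and read as 75 base single ends. The authors aligned the reads to mm39 with STAR, merged files with samtools, counted them with subread and deposited raw counts per gene, with no normalization. The annotation and the strand setting are not given in the sources used here. Rows without a gene name (1029 rows, 0.335% to 0.467% of counts) were left out. Symbols altered by R were restored, and 21526 of 22065 matched GENCODE vM39, which gave positions and exon lengths on GRCm39.

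Genes were tested with edgeR 4.0.16 (TMM, filterByExpr, quasi-likelihood, condition as the only term) and Benjamini-Hochberg adjustment over 16444 genes, with a threshold of 0.05. Alternatives were DESeq2 1.42.0, limma 3.58.1 (voom), other size factors, no filter and each library left out. Library totals of 7214935 to 12398138 counts set the counting precision, and the spread between libraries sets the errors. Normalized counts are counts over DESeq2 size factors, and log2 CPM used a prior count of 2. The 10 genes, the 5 related lists and the 8 marker lists were chosen with earlier results of these data known. Related genes were named where they passed the test or had one of the 3 largest within-group SDs of their list, genes singled out in Control replicate 4, Ier2 and Prdx2 were chosen after their values were seen, and the 8 genes most like the mean of the 10 were named by Pearson r. The scripts were tested on simulated data, and no set test was run. The values of some genes of these lists are not reported here.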

Additional observations from a re-analysis of the deposited data

Results flagged for a closer look

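Each of the 10 genes was examined for a library standing apart from the other 3 of its group, 20 groups in all. Chance marks about 1 in 20 groups of genes taken without regard to their values, a rate that does not apply here because these genes were chosen by their spread, so the marks are a description. Fos in Mitol KO replicate 4 (11501 normalized counts, beside 7137 to 7716 in the other 3) and Btg2 in Control replicate 4 (196, beside 1205 to 1308) were marked, because the gap to the nearest library took up most of the range of the group. The low values of Nr4a1, Nr4a2, Nr4a3 and Egr3 in Control replicate 4 were not marked by this measure, which was taken on normalized counts and not on a log scale. On that linear scale, differences among Control replicates 1 to 3 took up more of the range than for Btg2. On the log2 CPM scale the SD of Control replicates 1 to 3 was 0.31 for Nr4a3 and 0.22 for Nr4a2, against 2.23 and 1.24 with replicate 4.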

How the results depend on the processing

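With all 8 libraries, edgeR called 770 genes higher and 616 lower in Mitol KO. With upper-quartile factors the split was 594 against 845, and the median of all genes moved from -0.020 to -0.082. DESeq2 called 2317 genes, and an adjusted p under 0.1 passed 2585. Leaving out 1 library gave 365 genes (without Control replicate 2) to 2487 (without Mitol KO replicate 4), 0 to 1 of the 10 genes, and 5 (without Mitol KO replicate 3 or Control replicate 2) to 19 (without Mitol KO replicate 4) genes in the 5 related lists, where 16 were called with all libraries. Of the 10 genes, 0 passed with RLE factors and 0 without the filter, where 2 (Fosb and Egr1) had an unadjusted edgeR p under 0.05, and DESeq2 called 1. Nr4a1 turned from -0.081 to 0.468 with limma-voom, to 0.284 with the replicate block and to between -0.454 and 0.344 with 1 library left out. Nr4a3 turned from -0.047 to 0.772, to 0.0278 and to between -0.482 and 0.278 under the same alternatives, and neither gene passed in any. The replicate block called 1652 genes, Fosb among them (adjusted p = 0.0411). Same-numbered libraries did not deviate together (correlations 0.080, -0.070, 0.053 and 0.067, and 2 of 4 numbers matched best with themselves). Whether the numbers pair the samples is not given in the sources used here, and these correlations cannot settle it. The cause of these shifts was not tested. With 4 libraries a group and 1 of them far from the rest, the changes of Nr4a1, Nr4a2, Nr4a3 and Btg2 passed in no fit. Those of Nr4a2 and Btg2 went to 0.014 and 0.076 without Control replicate 4. The size of change that could have been detected was not tested.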
